A study of Mus musculus with 4 samples.

Results

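NFIC binding was described at the MAP kinase cascade genes and at the dual specificity phosphatase (DUSP) genes of the mouse pancreas. Members were the rows of the merged NFIC peak list whose gene name is Mapk, Map2k, Map3k, Map4k or Dusp followed by a number. The rule found 69 of 15824 peaks, at 41 of the 9086 genes named in the list. The RefSeq annotation holds 67 protein-coding genes with such names, 43 kinases and 24 DUSPs, and the other 26 had no peak of their own. Names alone chose the members, so peak position, score and sequence were not used by the rule. The members and comparisons were still chosen with earlier results of these data known.

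Signals from growth factors, cytokines and stress pass along this cascade from one kinase to the next: a MAP4K can activate a MAP3K, which phosphorylates a MAP2K, which in turn phosphorylates a MAP kinase on a threonine and a tyrosine. The MAP kinases are the ERK, JNK and p38 families and some atypical relatives, and they act on other kinases and on transcription factors in the nucleus. DUSPs remove phosphate from both residues; the typical MAP kinase phosphatases carry a docking domain for MAP kinases, and several are themselves induced by the pathway that they switch off. In the exocrine pancreas, secretagogues and pancreatitis activate ERK, JNK and p38. NFIC belongs to the nuclear factor I (NFI) family, which binds as a dimer to a palindrome.

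The list came from 3 NFIC ChIP libraries and 1 library of input DNA, all from whole pancreas of wild-type mice whose strain is labelled Mixed, and whose age the submitters give as 8 to 12 weeks. For its NFIC ChIP-Seq mice the paper states a narrower age range. Chromatin was precipitated with an NFIC antibody from Bethyl, and no treatment or second genotype was compared. A single merged list was deposited, on mm10, with 1 score per peak and 0 columns for single libraries. From this list the spread between libraries and their depth are unknown, no difference between kinases and DUSPs could be tested over samples, and the 95% Wilson intervals given for shares cover counting error only. Peaks at the same gene are not independent. The pancreas was not separated into acinar, ductal and endocrine cells, so binding in few cells and weak binding in many cannot be told apart.

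Sequences are shown first for the highest peaks of *Dusp8*, *Dusp1* and *Mapk14*, the 3 member genes with the highest scores, 1 peak for each gene. All are given 5′ to 3′ on the plus strand of mm10, from the RefSeq copy of GRCm38. Capitals mark an NFI full site, which is TGGC, 5 free bases and GCCA with at most 1 mismatch over the 8 fixed bases; this consensus is its own reverse complement, so a single search covers both strands. The whole peak of 173 bp is printed for *Dusp8* (chr7:142084875-142085047, score 31.7), for the promoter of *Dusp1* (chr17:26508596-26508768, score 17.7) and for the promoter of *Mapk14* (chr17:28691045-28691217, score 14.9).
Dusp8 intron peak: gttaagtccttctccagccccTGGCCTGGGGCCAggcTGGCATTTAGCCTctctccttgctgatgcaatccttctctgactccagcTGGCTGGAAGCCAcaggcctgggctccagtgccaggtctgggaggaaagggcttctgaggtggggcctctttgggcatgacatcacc
Dusp1 promoter peak: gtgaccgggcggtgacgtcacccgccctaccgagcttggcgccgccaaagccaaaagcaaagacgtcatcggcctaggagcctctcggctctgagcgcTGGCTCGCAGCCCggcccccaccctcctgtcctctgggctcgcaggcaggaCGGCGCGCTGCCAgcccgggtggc
Mapk14 promoter peak: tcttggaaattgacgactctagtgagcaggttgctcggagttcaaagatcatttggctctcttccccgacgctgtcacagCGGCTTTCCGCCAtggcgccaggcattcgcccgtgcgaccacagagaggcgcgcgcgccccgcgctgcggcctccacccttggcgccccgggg

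The *Dusp8* peak held 3 full sites, and 2 of them had no mismatch. The *Dusp1* promoter peak held 2 sites with 1 mismatch each, A13C and T1C, where positions run from 1 at the 5′ end of the 13-base site on the plus strand and the consensus base comes first. The single site of the *Mapk14* promoter, T1C, lay exactly at the centre of its peak (0 bp).

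Sites with no mismatch were also found in peaks upstream of *Dusp5* and *Dusp6*, inducible phosphatases of ERK. They are shown with 8 bases on each side, at chr19:53517735-53517763 for the *Dusp5* peak at -11541 bp and at chr10:99201866-99201894 for the *Dusp6* peak at -61290 bp.
Dusp5 upstream site: cccaaagcTGGCTGCAGGCCAcacagcag
Dusp6 upstream site: tagggtgcTGGCCTAAGGCCAgccattga

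None of the 6 promoter-class member peaks with a site held one without a mismatch; in the whole list 13.4% of such promoter peaks did. Beside those of *Dusp1* and *Mapk14*, sites with 1 mismatch stood in the promoter peaks of *Dusp28* (chr1:92906885-92906913, G3T), *Mapk3* (chr7:126759555-126759583, A13C), *Map3k9* (chr12:81781217-81781245, G10C) and *Map2k5* (chr9:63378003-63378031, G10T). These examples were chosen after their values were seen, to set the promoters beside the distal sites.
Dusp28 promoter site: ggcctcccTGTCCTGCAGCCAaatcgcca
Mapk3 promoter site: gcggagccTGGCGCGCGGCCCcgcggtga
Map3k9 promoter site: cgcgagccTGGCTCCGCCCCAgccctgcg
Map2k5 promoter site: gctaggacTGGCTGACTTCCAtctcttca

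Of the 43 kinase genes, 28 had at least 1 peak (65.1%, interval 50.2 to 77.6), beside 37.2% of all 21000 protein-coding genes. Among the 24 DUSP genes the number was 13 (54.2%, interval 35.1 to 72.1). Both shares were above that of all genes, and the interval of the DUSPs included it. In the promoter window, from -1000 bp to the transcription start site (TSS), 19 kinases had a peak (44.2%, interval 30.4 to 58.9) and 4 DUSPs did (16.7%, interval 6.68 to 35.9), beside 10.7% of all protein-coding genes. The kinase interval lay above the share of all genes, while that of the DUSPs included it. Kinase genes were also longer, with a median length of 57064 bp against 11846 bp for DUSPs and 17742 bp for all protein-coding genes. The part of length in these shares was not tested. All protein-coding genes were counted, whether or not the pancreas expresses them. The part of expression and of promoter GC content in these shares was not tested either.

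**Figure D1:**
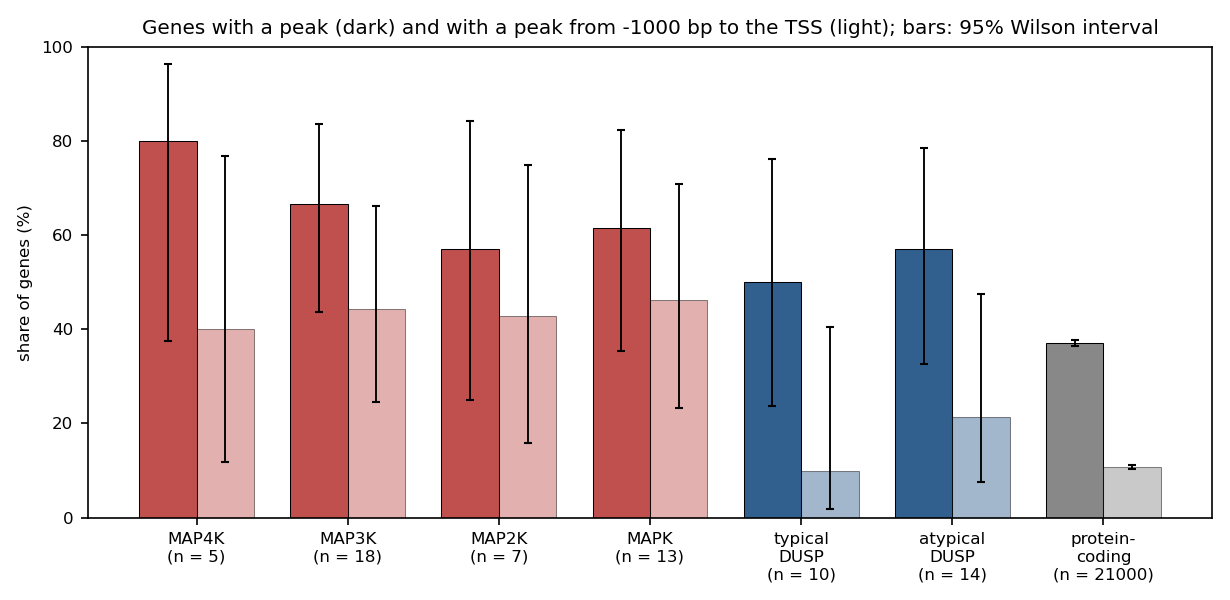
Share of genes (%, vertical axis) with any NFIC peak (dark bars) and with a peak from -1000 bp to the TSS (light bars) in each tier of the cascade and in all protein-coding genes, with 95% Wilson intervals. Promoter shares of the 4 kinase tiers lie between 40% and 46.2%, above the 10.7% of all genes, with wide intervals.

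Several members had more than 1 peak. A single peak was found at 25 genes (61.0%), close to the 61.4% of all genes in the list, and 2 or more at 16. *Map3k9* had 5 peaks, *Dusp6* and *Map4k3* had 4 each, and *Map3k5*, *Map3k14*, *Map2k6*, *Dusp14* and *Dusp26* had 3 each. The peaks of *Map3k9* spanned 38509 bp and those of *Map4k3* 117566 bp.

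**Figure D2:**
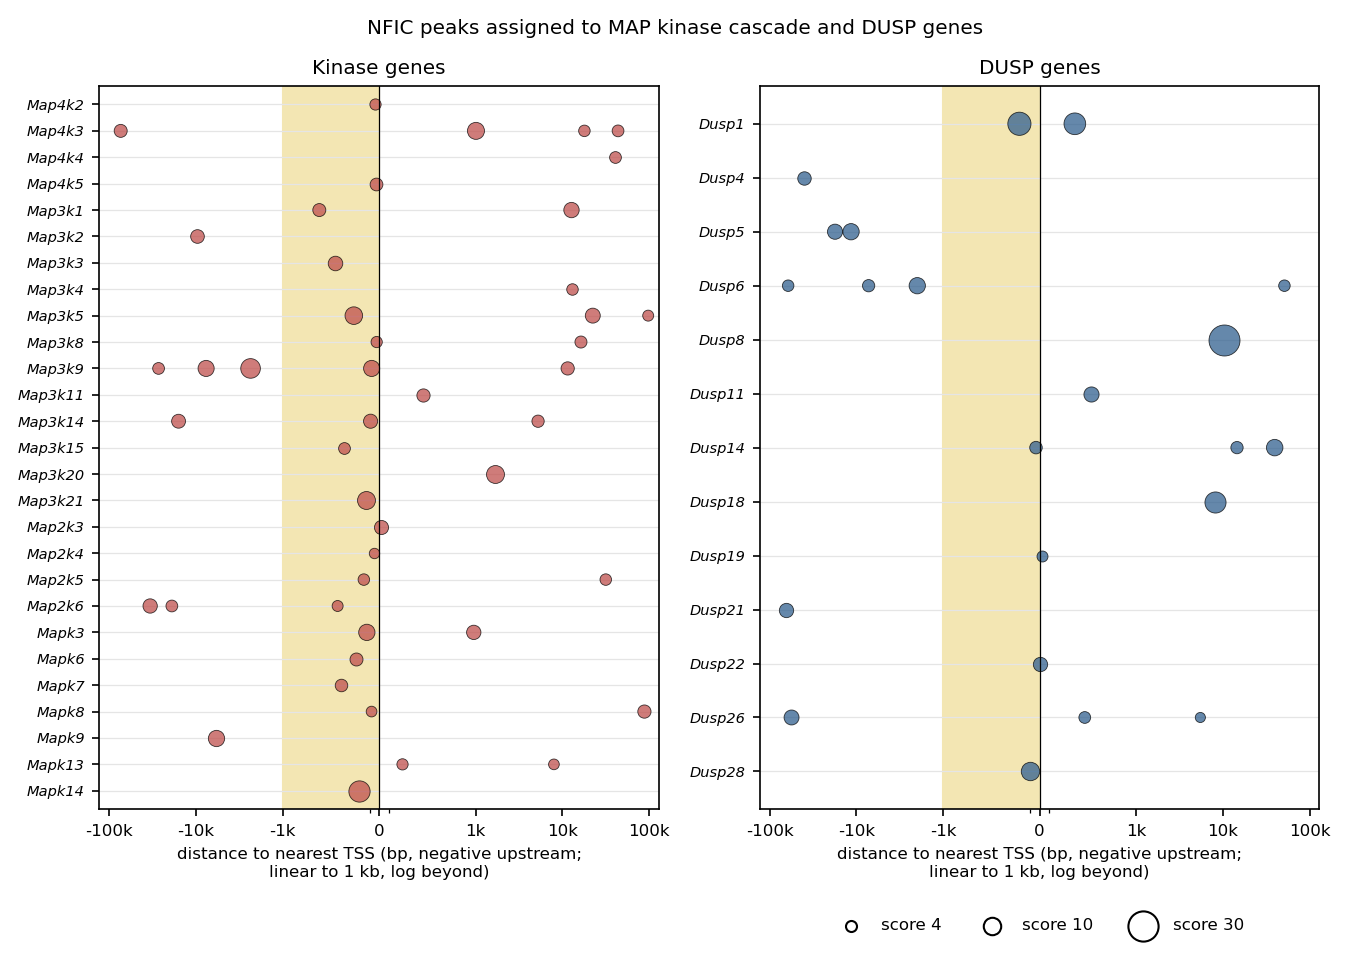
NFIC peaks of kinase genes (left, 1 gene not drawn) and of the 13 DUSP genes (right) by distance from the peak centre to the TSS in bp, negative upstream, on an axis that is linear to 1 kb and logarithmic beyond. Circle area is proportional to the peak score and the shaded band is the promoter window. Many kinase lanes have a circle in or beside the band; of the DUSPs, *Dusp1*, *Dusp14*, *Dusp22* and *Dusp28* have a circle in the band, at its edge for *Dusp22*, and the circles of the other genes lie outside it.

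At the top of the cascade, 4 of 5 MAP4K genes had a peak. These Ste20-type kinases feed mostly into JNK signaling. *Map4k3*, a kinase that also links amino acids to mTORC1, had its highest peak at 1010 bp in an intron, with a score of 9.56, and its other peaks at -73751, 17950 and 43815 bp had scores of 4.38 to 5.58. *Map4k2* and *Map4k5* were bound at the promoter, at -42 bp with a score of 4.18, and at -30 bp, with a score of 5.38. The *Map4k5* peak also lay 88 bp downstream of the TSS of *Atl1*, which runs on the other strand, so it cannot be assigned to either gene alone. The single peak of *Map4k4* had a score of 4.58 and lay 40547 bp downstream of the TSS, in intron 2 of 29. Apart from the 1010 bp peak of *Map4k3*, no MAP4K peak reached the median score of all peaks, 6.57.

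In the MAP3K tier 12 of 18 genes had a peak and 8 had one in the promoter window. Its 4 highest peaks were at 4 different genes. *Map3k9*, the mixed-lineage kinase MLK1, had a peak of score 12.7 at -2350 bp, a promoter peak of 8.56 at -78 bp and another of 8.56 at -7644 bp, and its peaks at -26993 and 11516 bp had scores of 4.58 and 5.78. *Map3k21*, the related kinase MLK4, was bound at -134 bp with a score of 10.6. *Map3k20* (ZAK), a sensor of ribosome stress, had the same score of 10.6 at 1678 bp, within intron 1 of 19. *Map3k5* (ASK1), which takes part in oxidative and ER stress signaling to JNK and p38, was bound at the promoter at -263 bp with a score of 10.2, and at 22419 and 97534 bp with scores of 7.37 and 3.98.

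Lower scores were seen at the other MAP3K promoters. *Map3k3* (MEKK3), upstream of ERK5 among others, had a score of 6.97 at -463 bp. *Map3k14* (NIK), the kinase of noncanonical NF-kB signaling, had 6.57 at -89 bp, with further peaks of 6.37 at -15876 bp and 4.98 at 5247 bp. The values of *Map3k1* (MEKK1) were 5.58 at -621 bp and 7.77 at 12739 bp. These genes thus held promoter peaks near or below the median score of the list. *Map3k15* had a score of 4.58 at -360 bp. *Map3k8* (TPL2), which activates MEK in inflammatory signaling, had 4.18 at -26 bp and 4.78 at 16379 bp, and the second of these peaks held the only site without a mismatch among the kinase peaks. *Map3k11* (MLK3) was bound downstream of its TSS, at 458 bp with a score of 5.78. *Map3k2* and *Map3k4* had only distal peaks, at -9810 bp with a score of 6.17 and at 13065 bp with a score of 4.38.

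The MAP2K tier had 4 of 7 genes with a peak, and its scores stayed between 3.59 and 6.77. *Map2k3* and *Map2k6*, the activators of p38, were both bound. *Map2k3* had a peak of 6.57 at 23 bp, and *Map2k6* had peaks of 3.98 at -431 bp, 6.77 at -33746 bp and 4.58 at -18973 bp. The -33746 bp peak of *Map2k6* was annotated to intron 1 of 11 of a longer transcript, while its distance was taken to a downstream start. *Map2k4*, an activator of JNK, had the lowest kinase score, 3.59 at -54 bp. *Map2k5*, the activator of ERK5, had peaks of 4.38 at -159 bp and of 4.38 at 31635 bp. The ERK activators *Map2k1* and *Map2k2* and the JNK activator *Map2k7* had no peak.

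Among the MAP kinases themselves 8 of 13 genes had a peak, and 6 of their 11 peaks were of the promoter-TSS class. The tier had the shortest median distance to the TSS, 244 bp (interval 79.0 to 7994). *Mapk14*, which encodes p38α, had the highest kinase score, 14.9 at -211 bp. If 1 step of the score (0.199) is 1 tag, which the authors do not state, its Poisson interval is 11.8 to 18.7. Such intervals cover the counting error of tags only, not the spread between libraries. The other p38 gene with peaks, *Mapk13* (p38δ), had scores of 4.18 at 242 bp and 3.78 at 7994 bp, both with upper bounds below the lower bound of *Mapk14*. *Mapk3* (ERK1), one of the classical ERK genes, was bound at the promoter with a score of 8.76 (6.37 to 11.8) at -128 bp, and in an intron with 6.77 (4.69 to 9.46) at 981 bp, and these intervals overlapped. Among the JNK genes, *Mapk9* (JNK2) had a score of 8.76 at -5937 bp, while *Mapk8* (JNK1) had 3.78 at -79 bp and 5.78 at 88228 bp inside an intron of *Arhgap22*. *Mapk7* (ERK5) and the atypical *Mapk6* (ERK3) had promoter peaks of 5.18 at -391 bp and 5.58 at -244 bp.

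Typical MAP kinase phosphatases were bound at 5 of 10 genes, and 7 of their 10 peaks were intergenic. *Dusp8*, a phosphatase of JNK and p38, had the highest score of all members, 31.7 at 10323 bp in intron 3 of 6, which ranked 26 among the 15824 peaks. With the same reading of the score its interval was 26.9 to 37.0, above that of every other member peak. This peak was singled out for its score, and the interval does not account for that choice. *Dusp1*, an immediate-early nuclear phosphatase, had the next peaks, with a score of 17.7 (14.2 to 21.8) at -210 bp and of 15.5 (12.3 to 19.4) at 365 bp in exon 1 of 4. These *Dusp1* peaks lay 575 bp apart, and their intervals overlapped with each other and with that of *Mapk14*.

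The ERK phosphatases *Dusp4*, *Dusp5* and *Dusp6* had peaks away from their promoters, while *Dusp7* and *Dusp9*, also ERK phosphatases, had no peak. *Dusp6*, a cytoplasmic feedback inhibitor of ERK, had 4 intergenic peaks over 112553 bp, with scores of 4.38 at -61290 bp, 4.98 at -7244 bp, 8.76 at -1992 bp and 4.38 at 51263 bp. *Dusp5*, its nuclear counterpart, had scores of 7.57 at -17650 bp and 8.76 at -11541 bp. *Dusp4*, a nuclear phosphatase of ERK and JNK, had 1 peak of 5.98 at -40148 bp. An NFI full site was found in 8 of the 10 peaks of typical phosphatases (80.0%, interval 49.0 to 94.3), and the interval included the 51.8% of all peaks; the exceptions were the *Dusp5* peak at -17650 bp and the *Dusp6* peak at 51263 bp.

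Atypical DUSPs lack the docking domain, and many act on substrates other than MAP kinases; 8 of 14 such genes had a peak. *Dusp18* had the highest score, 14.7 at 8021 bp, in an intergenic peak downstream of the gene. *Dusp28* was bound at the promoter with 11.2 at -101 bp. *Dusp14* had peaks of 5.18 at -38 bp, 4.98 at 14563 bp and 8.96 at 39591 bp, the last inside an intron of *Synrg*. Other TSS peaks were those of *Dusp22*, with 6.77 at 0 bp, and *Dusp19*, with 3.98 at 27 bp. *Dusp11* had 7.57 at 532 bp in an intron. *Dusp26* had 7.37 at -55979 bp, 4.58 at 468 bp and 3.39 at 5507 bp, the last at the transcript end and with the lowest score that occurs in the list. *Dusp21* had 1 peak of 6.77 at -64306 bp, on an LTR element, with a site without a mismatch.

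The genes with no peak included members of each tier, namely *Map4k1*, *Map3k6*, *Map3k7*, *Map3k10*, *Map3k12*, *Map3k13*, *Map3k19*, *Map2k1*, *Map2k2*, *Map2k7*, *Mapk4*, *Mapk10*, *Mapk11*, *Mapk12* and *Mapk15* among the 15 kinases. The 11 DUSPs were *Dusp2*, *Dusp3*, *Dusp7*, *Dusp9*, *Dusp10*, *Dusp12*, *Dusp13*, *Dusp15*, *Dusp16*, *Dusp23* and *Dusp27*. For 23 of these 26 genes the nearest peak of any gene lay more than 10000 bp from the TSS. The same share over all genes without a peak was not counted. The other 3 had a peak within 2000 bp upstream that the list names for a neighbor. The peak at -1283 bp from *Dusp3* had a score of 17.5 and was assigned to 1700006E09Rik. That at -1748 bp from *Map3k12* had 12.7 and was assigned to *Tarbp2*, and that at -1973 bp from *Dusp13* had 7.57 and was assigned to *Samd8*. Conversely, 5 member peaks lay within 1000 bp of the TSS of another gene, given here with the distance from that TSS, at *Map4k5*, *Map3k11* (*Pcnx3*, -681 bp), *Map3k8* (4833419F23Rik, -568 bp), *Map2k3* (*Map2k3os*, -213 bp) and *Mapk6* (4933433G15Rik, -581 bp), and ChIP alone does not say which gene is served. How often peaks of the whole list lie so near the TSS of another gene was not counted. The promoter peak of *Mapk14* lay within the bounds of *Slc26a8*, and that of *Map3k1* within those of Gm15327. The *Map3k9* peaks at -7644 and -2350 bp lay within Gm46366, and the *Mapk9* peak at -5937 bp within Gm36507.

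Kinases and DUSPs were then compared by element class and distance. Of the 47 kinase peaks, 21 were of the promoter-TSS class (44.7%, interval 31.4 to 58.8), and 5 of the 22 DUSP peaks were (22.7%, interval 10.1 to 43.4), beside 20.7% of all peaks. Kinase peaks thus lay at promoters more often than peaks of the whole list, and the share of DUSPs was close to that of the list. The kinase peaks of this class include that of *Map3k11*, at 458 bp from its own TSS and at -681 bp from that of *Pcnx3*. Intergenic peaks were 10 of 22 at DUSPs (45.5%, interval 26.9 to 65.3) and 8 of 47 at kinases (17.0%, interval 8.89 to 30.1), beside 30.6% of all peaks. The intervals of kinases and DUSPs overlapped for both classes. The median absolute distance to the TSS was 1010 bp for kinases (interval 360 to 9810), 7632 bp for DUSPs (365 to 39591) and 10438 bp for all peaks. Taking the nearest peak of each gene only, the medians were 243 bp for kinases (interval 89 to 458) and 532 bp for DUSPs (38 to 11541).

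**Figure D3:**
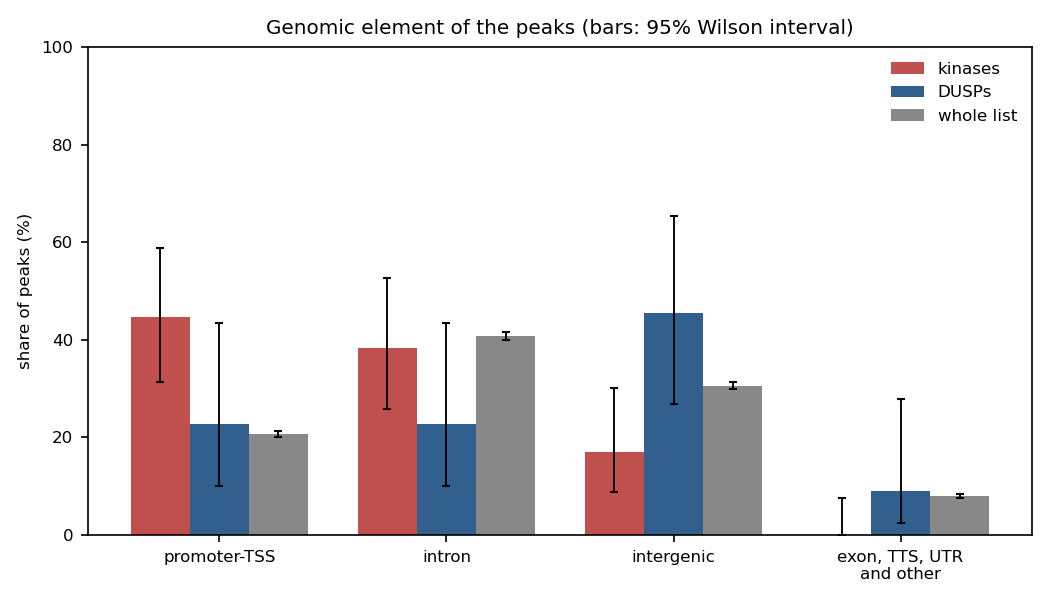
Share of peaks (%, vertical axis) in each class of genomic element for kinases, DUSPs and the whole list, with 95% Wilson intervals. Kinases have the highest promoter-TSS share, 44.7%, and DUSPs the highest intergenic share, 45.5%; the intervals of the 2 groups overlap in every class.

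The median score was higher at DUSPs than at kinases, with overlapping intervals. It was 7.07 for DUSPs (interval 4.98 to 8.96, range 3.39 to 31.7) and 5.58 for kinases (4.58 to 6.57, range 3.59 to 14.9), beside 6.57 for all peaks. A score at or above that of the median peak was found for 13 of 22 DUSP peaks (59.1%, interval 38.7 to 76.7) and 17 of 47 kinase peaks (36.2%, interval 24.0 to 50.5), beside 51.6% of all peaks. The kinase interval lay below the share of the list and the DUSP interval included it. By tier, the medians ran from 4.38 for MAP2K, 4.58 for MAP4K, 5.58 for MAPK and 6.27 for MAP3K to 6.77 for atypical and 8.16 for typical DUSPs, and the intervals of neighbors in this order overlapped.

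**Figure D4:**
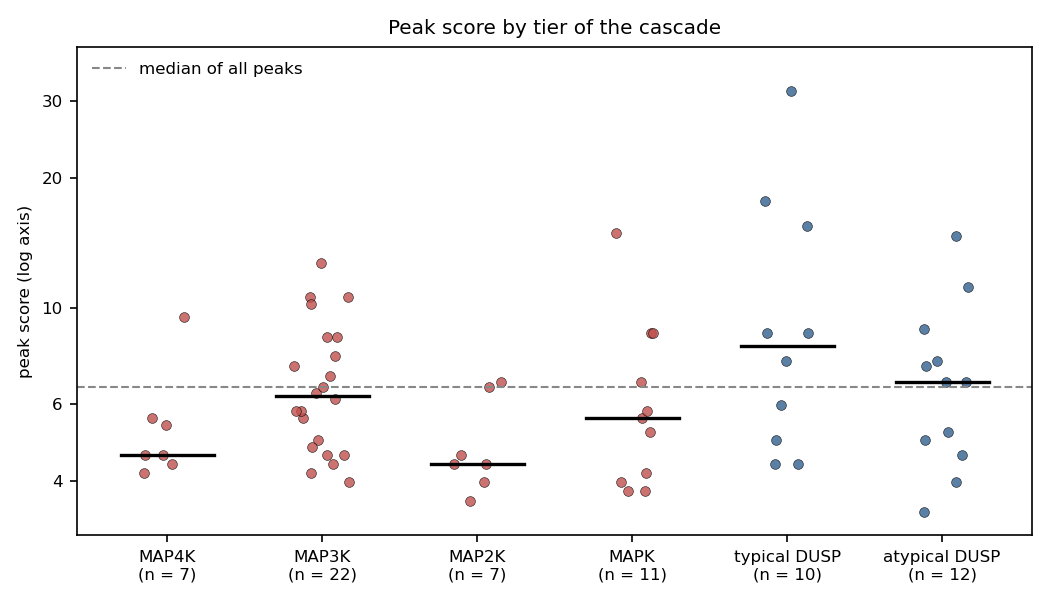
Peak score (logarithmic axis) of each member peak by tier, with the median of the tier as a black line and the median of all peaks, 6.57, as a dashed line. The medians of the 4 kinase tiers lie below the dashed line and those of both DUSP tiers above it, while the points overlap; the highest point is the *Dusp8* peak at 31.7.

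Sequence was then compared under the peaks of both groups. A full NFI site in the 200 bp around the centre was found in 14 of 22 DUSP peaks (63.6%, interval 43.0 to 80.3) and in 12 of 47 kinase peaks (25.5%, interval 15.3 to 39.5), beside 51.8% of all peaks and 15.3% of 32817 promoter windows of 300 bp. Of the shares compared here between DUSPs and kinases, this was the one whose intervals did not overlap, and the kinase interval lay below the share of all peaks. The gap between the intervals was lost with a window of 400 bp (kinases 22.2 to 48.3, DUSPs 47.3 to 83.6), with no mismatch allowed (0.377 to 11.1 and 7.31 to 38.5) and with scores at or above the median only (21.6 to 64.0 and 42.4 to 87.3). The order was the same outside the promoter class, with overlapping intervals, where the shares were 12 of 17 for DUSPs (70.6%, interval 46.9 to 86.7), 8 of 26 for kinases (30.8%, interval 16.5 to 50) and 55.9% for all peaks. In the promoter class a site was found in 2 of 5 DUSP peaks, in 4 of 21 kinase peaks (19.0%, interval 7.67 to 40) and in 36.0% of all peaks.

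The share with a site was also set beside the score. Among peaks with a score at or above the median, 9 of 13 at DUSPs held a full site (69.2%, interval 42.4 to 87.3). At kinases 7 of 17 did (41.2%, interval 21.6 to 64.0), beside 59.4% of all such peaks (58.4 to 60.5). Below the median the numbers were 5 of 9 at DUSPs (55.6%, interval 26.7 to 81.1) and 5 of 30 at kinases (16.7%, interval 7.34 to 33.6). In the whole list the share below the median was 43.6% (42.5 to 44.7). The intervals above and below the median overlapped within kinases and within DUSPs, and did not overlap in the whole list. The part of score in the difference between the groups was not tested. Sites without a mismatch were found in 4 DUSP peaks and 1 kinase peak, and in 13.4% of all peaks.

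**Figure D5:**
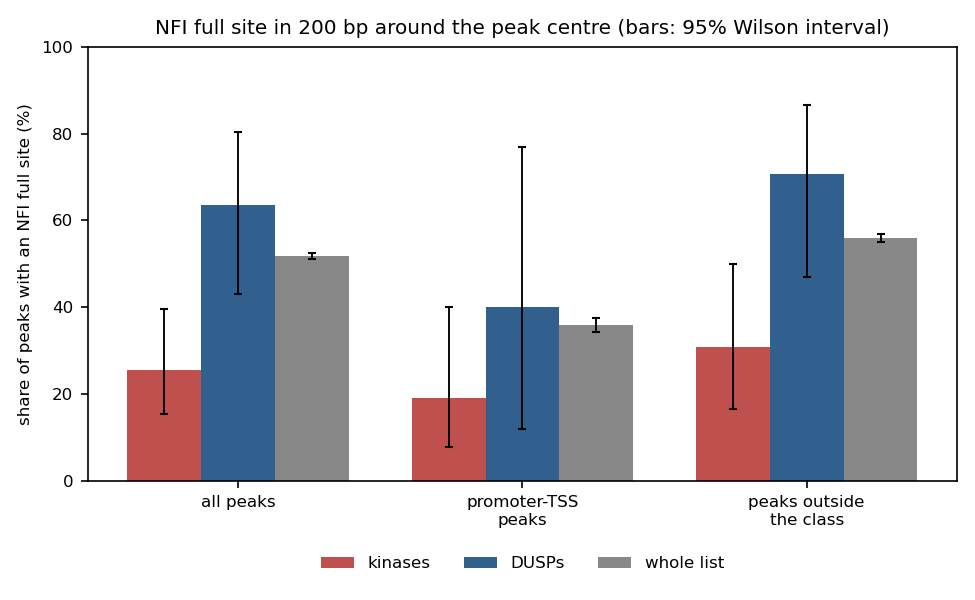
Share of peaks (%, vertical axis) with an NFI full site for kinases, DUSPs and the whole list, over all peaks, in the promoter-TSS class and outside it, with 95% Wilson intervals. DUSPs have the highest and kinases the lowest share in each of the 3 sets, and the intervals are wide where peaks are few.

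Shorter motifs and those of other factors were counted in the same windows. The single NFI arm TTGGCA, which can overlap a full site, was present in 15 kinase peaks (31.9%) and 7 DUSP peaks (31.8%), close to the 33.6% of all peaks. The CRE, TGACGTCA, bound by CREB and ATF factors, was found in 1 member peak, the *Dusp1* promoter, and in 0.543% of all peaks and 1.79% of promoter windows. An SRF site, the CArG box of serum response factor, was found in the windows of the *Dusp6* peak at -1992 bp and the *Map4k3* peak at -73751 bp. The last base of the *Dusp6* box lay beyond the end of the peak itself. Such a site was found in 0.803% of all peaks and 1.63% of promoter windows. The ETS site of ELK1, CCGGAAGT, a factor phosphorylated by ERK, was among the members in the *Mapk7* promoter peak only. It was in 1.26% of all peaks and 3.89% of promoter windows. These are shown with the motif in capitals because their factors are known targets of the cascade (chr17:26508608-26508615 for the CRE, chr10:99261317-99261326 for the CArG box and chr11:61494716-61494723 for the ETS site).
Dusp1 CRE: ccgggcggTGACGTCAcccgccct
Dusp6 CArG box: agtgctgcCCAAAAAAGGcgcggaga
Mapk7 ETS site: tttcggcgCCGGAAGTtctggacg

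The AP-1 site (TGACTCA or TGAGTCA) was in 2 kinase peaks and no DUSP peak (0 of 22, which allows up to 14.9% by the Wilson interval), and in 3.65% of all peaks. The FOX site (TGTTTAC or TATTTAC) was in 3 kinase peaks (6.38%), the share of all peaks, and the NR5A2 site CAAGGTCA was in none of the 69, beside 2.03% of all peaks. All were searched on both strands, and a match or its absence says nothing of binding by the factor. Repeats underlay 9 member peaks (13%, beside 10.5% of all peaks). Of these repeats 7 were LTR elements, for which the share of all peaks was not counted. The median GC content was 58.5% at kinases and 55.2% at DUSPs, beside 54.0% for all peaks.

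Around the cascade, 56 of 89 genes in 6 lists of pathway components had a peak (62.9%), and 17 had one in the promoter window (19.1%), beside 37.2% and 10.7% of all protein-coding genes. Of the ligands and receptors 12 of 19 had a peak, of the adaptors, RAS and RAF genes 11 of 18, of the scaffolds and related kinases 6 of 12, of the kinases downstream 6 of 11, of the transcription factors downstream 13 of 16, and of the feedback inhibitors and other phosphatases 8 of 13. *Jun*, the AP-1 subunit phosphorylated by JNK, had a peak of 30.5 at 2143 bp, and *Fos* had 6.77 at -407 bp. Feedback inhibitors bound at the promoter were *Spred1*, with 13.3 at -569 bp, and *Spry1*, with 5.18 at -45 bp, and the p38 and JNK phosphatase *Ppm1a* had 13.7 at -215 bp. *Hras* had a peak of 5.38 at 68 bp, whereas *Nras*, *Braf* and *Araf* had none. *Lamtor2*, a MEK scaffold of the late endosome, was bound at -75 bp with 13.1.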

How the data were processed

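NFIC ChIP-Seq of mouse pancreas was available as 1 merged peak list. The peak score is the authors' deposited value, on a scale that is not given in the sources used here. The focus ratio, a deposited fraction of the tags of a peak, was not used in a comparison. The submitters' processing notes name BWA, Picard, MACS2 and mm10, the header holds a HOMER annotation command, and the methods name RUbioSeq+ and HOMER for downloaded data; thresholds are not stated. The list held 0 unused columns of single samples, and depth is unknown.

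Peaks were counted by the gene, element and distance of the list, and genes by Entrez identifier against 21000 protein-coding genes of GRCm38 (mm10) in RefSeq. For 62 of 69 member peaks the listed distance equalled that from the RefSeq start within 1 bp. Every score was a whole multiple of 0.199, within 0.005 below 10 and 0.05 from 10 upwards. Motifs were searched in 200 bp around the peak centre. Shares have 95% Wilson intervals and medians order-statistic intervals. No test was run, since the list holds no value per library; the reads were not used here. Members, lists and comparisons were chosen with earlier results of these data known. Every member is counted, and the values of some genes are not reported here; values in full were set for promoter members, the genes with the most peaks, the 5 highest peaks of each group and typical phosphatases, and the other members, the pathway genes and the sites with a mismatch were named after their values were seen. *Zak*, an alias of *Map3k20*, and *Spry3*, not matched, were left out of the pathway lists. Alternatives varied the scores kept, promoter window, annotation, weight of genes, members, merging of peaks and motif settings. The motif search and the intervals of shares and medians were tested on simulated data, and the other steps were not. Intervals were computed with statsmodels 0.14.6 and scipy 1.17.1, sequences were read with pysam 0.24.0, tables with pandas 2.3.3 and numpy 2.4.6 under Python 3.11, and plots were drawn with matplotlib 3.10.9.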

Additional observations from a re-analysis of the deposited data

How the results depend on the processing

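Of 45 values recomputed under alternatives, 36 stayed inside the interval of the main value or, for counts, changed by less than 1.5 times. The other 9 did not. With only peaks whose score was at or above the median, 30 member peaks at 24 genes were left, the share of kinase genes with a peak was 30.2%, with an interval of 18.6 to 45.1 that included the 21.9% of all protein-coding genes, and with a promoter peak 16.3% (8.12 to 30), beside 5.57%, and 41.2% of kinase peaks held a full NFI site. With no mismatch allowed, a site was found in 2.13% of kinase and 18.2% of DUSP peaks. The nearest peak of each kinase gene had a median distance of 243 bp, and 10% of the peaks of typical phosphatases were of the promoter-TSS class. The order of kinases and DUSPs was kept in 21 of 22 comparisons. In some of these, typical phosphatases alone were set against the unchanged kinase value. With higher scores only, more DUSP genes (45.8%) than kinase genes had a peak. The NFI shares of kinases and DUSPs had intervals that did not overlap in 1 of 4 alternatives, the peak as deposited. Merging peaks within 500 bp left all 69 peaks, so the values under that setting could not differ. They are counted among the unchanged ones. No paired analysis was possible because the list has no column for a single library, so no library could be left out either. The score and the unknown depth limit what low peaks show, and genes without a peak may be bound below the threshold of the list.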
